A study of Rattus norvegicus with 24 samples.

Results

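The 8 genes described here encode the subunits of the NMDA receptor (Grin1, Grin2a, Grin2b, Grin2c, Grin2d, Grin3a and Grin3b) and serine racemase (Srr). They were chosen by symbol, and all 8 were found among the 17420 genes of the deposited expression table. All 8 also passed a filter of at least 10 estimated reads on average over all pups, which kept 12265 genes and took no account of the group. RNA was sequenced from the hippocampus and neocortex of 24 Sprague-Dawley rat fetuses on embryonic day 18, with 6 pups in each of 4 groups and 3 pups from each of 2 litters per group. In the MAM group the dam received methylazoxymethanol acetate, an agent that methylates DNA and disturbs dividing neural cells, by intraperitoneal injection at 22 mg/kg on gestational day 17. In the Poly I:C group it received polyinosine:cytosine, a double-stranded RNA mimic of viral infection, at 7.5 mg/kg on the same day and by the same route. Saline dams were injected with saline, and fetuses were collected 18 hours after injection. The Low Protein group came from dams fed a diet with 6.1% protein, against 20.3% protein in the control diet. The diet of the injected MAM and Poly I:C dams, and any injection of the Low Protein dams, are not given in the sources used here. Sexes were combined. The treatment was given to the dam but the pup was the replicate in every test, so p-values measure the spread between pups, and litters are shown apart. Pups are named by litter and pup number, so that Saline 2.3 is the third pup of the second saline litter.

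NMDA receptors are glutamate-gated cation channels that open only when a co-agonist, glycine or D-serine, is bound as well and the magnesium block has been lifted by depolarization. Each receptor needs the GluN1 subunit encoded by Grin1, which binds the co-agonist and is joined by glutamate-binding GluN2 subunits (Grin2a to Grin2d) or glycine-binding GluN3 subunits (Grin3a and Grin3b). Serine racemase converts L-serine to D-serine. Before birth the cortex mainly uses GluN2B and GluN2D, while GluN2A and GluN2C become abundant after birth.

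The unit of the deposited values decides how the 8 genes can be ranked. The values are TPM with an offset of 0.0001, and they behave as reads divided by the genomic span of the gene, introns included. Sequencing depth, estimated from the step that a single read is worth, was 24.95 to 64.6 megareads per pup, with group medians of 33.9 megareads for Saline, 42.4 for MAM, 44.2 for Low Protein and 30.7 for Poly I:C. Across the 24 pups no member had a correlation with log2 depth beyond -0.31, the value of Grin2a. The tissue label was checked with 10 defining markers of the fetal pallium, of which 9 are rows of the table. Their summed value ranged from 209 to 419 across pups, and none of the 9 was at the offset in all pups. Pup Saline 2.1 stood apart in tissue markers. Its mean log2 value relative to saline was -0.49 for the pallial markers, against 0.0074 to 0.21 in the other saline pups, 0.56 for GABAergic neuron markers (-0.31 to 0.024) and 0.76 for striatal markers (-0.35 to 0.13). It also had the highest saline value of Grin1, 2.73, and of Grin2d, 0.675. Results that change without it are given both ways.

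Per genomic span, Srr had the highest mean value over the 24 pups, 2.30, followed by Grin1 at 2.10, Grin3b at 1.20, Grin2d at 0.447, Grin3a at 0.0763, Grin2c at 0.0310, Grin2b at 0.0182 and Grin2a at 0.00334. Srr and Grin1 were not separated, since Srr was the higher in 17 of 24 pups. Every other neighbour in this order held its place in at least 20 of 24 pups. In estimated reads the order was different. Grin1 had a mean of 2773 reads per pup, Srr 1949, Grin2d 875, Grin3a 745, Grin2b 415, Grin3b 372, Grin2a 65.4 and Grin2c 28.7. Grin2b and Grin3b were not separated on this scale, with Grin2b higher in 15 of 24 pups. Grin2b, which carries the main GluN2 subunit of the fetal cortex, spans 477610 bases in the GRCr8 assembly, and Grin3b, the subunit best known from motor neurons, spans 6323 bases. The value of Grin3b per span was therefore a median of 63.8 times that of Grin2b, in 24 of 24 pups, while Grin2b had a median of 1.18 times as many reads. Transcript lengths were not used here, so no order per length of mRNA is given. For its tests the study required a group mean above 1 throughout, a limit that only Grin1, Grin3b and Srr of the 8 genes meet. The comparisons below concern differences of each gene between groups, which the span does not affect.

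**Figure D1:**
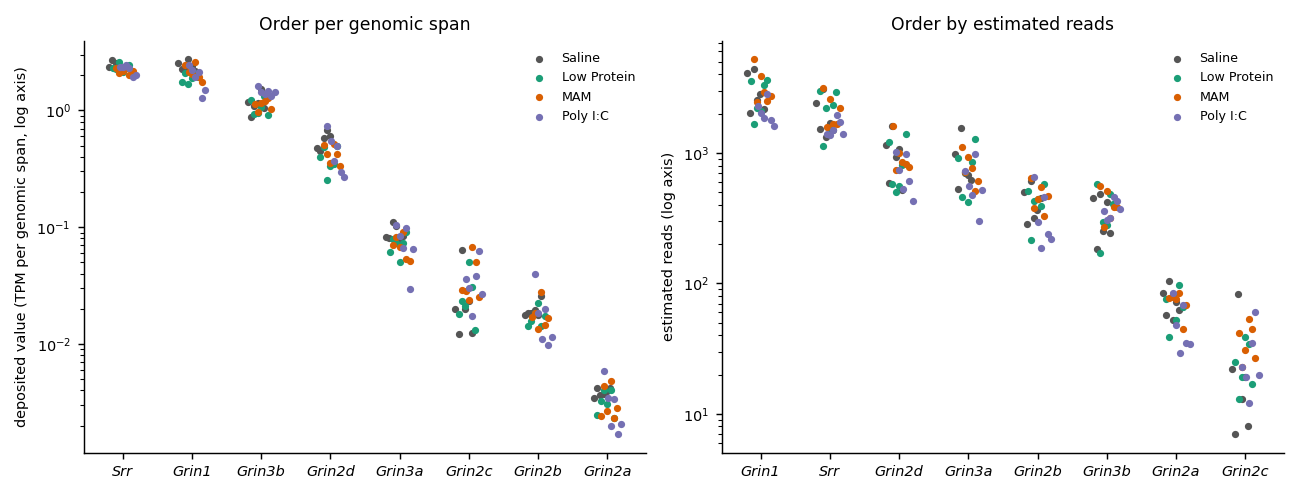
Deposited values (left, TPM per genomic span) and estimated reads (right) of the 8 genes, both on log axes, with a point for each of 24 pups coloured by group. Srr leads per genomic span with a mean of 2.30 and Grin1 leads in reads with a mean of 2773, and Grin3b drops from the third place on the left to the sixth on the right.

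The reads behind a value set its counting error. For Grin1 the counting error was 0.0274 on the log2 scale and for Srr 0.0327, well under the spread between saline pups (SD 0.118 and 0.106). Grin2a, with 29 to 104 reads, had a counting error of 0.178, and Grin2c, with 7 to 83 reads, one of 0.269. These errors cover counting only. Differences of Grin2a and Grin2c are therefore the least precise of the 8.

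RefSeq promoter windows of 300 bases, from 250 bases before to 50 after the start of the gene in GRCr8, were at hand for 5 of the 8 genes. The windows of Grin1, of Grin2d and Grin3a, whose levels followed Grin1 most closely across pups, and of Srr are shown 5′ to 3′ on the strand of the gene to set the obligatory subunit beside its partners and beside the co-agonist enzyme. Grin1 lies at chr3:28528705-28529004, Grin2d at chr1:105481187-105481486, Grin3a at chr5:69001509-69001808 and Srr at chr10:60284960-60285259, all on the minus strand. Capitals mark matches on either strand to the GC box GGGCGG, to which Sp1 binds, and to the Egr site GCGGGGGCG, which overlaps the GC box in Grin1.
Grin1: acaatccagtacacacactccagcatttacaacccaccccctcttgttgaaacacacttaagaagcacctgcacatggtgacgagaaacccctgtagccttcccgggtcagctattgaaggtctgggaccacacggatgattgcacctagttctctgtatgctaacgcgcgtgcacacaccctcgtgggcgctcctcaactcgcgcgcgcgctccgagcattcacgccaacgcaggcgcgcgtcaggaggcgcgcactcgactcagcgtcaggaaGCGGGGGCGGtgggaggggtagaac
Grin2d: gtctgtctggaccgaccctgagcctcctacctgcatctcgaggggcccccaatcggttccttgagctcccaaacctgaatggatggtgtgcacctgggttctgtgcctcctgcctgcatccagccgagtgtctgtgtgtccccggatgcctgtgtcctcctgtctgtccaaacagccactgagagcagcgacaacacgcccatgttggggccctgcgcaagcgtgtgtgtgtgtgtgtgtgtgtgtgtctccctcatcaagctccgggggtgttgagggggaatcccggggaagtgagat
Grin3a: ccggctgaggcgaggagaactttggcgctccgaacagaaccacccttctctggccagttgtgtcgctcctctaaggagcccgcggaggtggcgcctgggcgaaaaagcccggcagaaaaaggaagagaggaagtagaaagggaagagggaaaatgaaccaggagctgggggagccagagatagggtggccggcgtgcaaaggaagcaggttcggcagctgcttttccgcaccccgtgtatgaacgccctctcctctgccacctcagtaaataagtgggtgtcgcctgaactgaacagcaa
Srr: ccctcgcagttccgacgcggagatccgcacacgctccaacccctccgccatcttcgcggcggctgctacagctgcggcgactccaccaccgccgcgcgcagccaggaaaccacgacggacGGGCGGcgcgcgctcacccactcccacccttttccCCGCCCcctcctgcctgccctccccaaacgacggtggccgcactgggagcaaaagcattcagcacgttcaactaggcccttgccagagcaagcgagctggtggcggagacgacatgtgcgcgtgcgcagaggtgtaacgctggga
Among the 10023 promoters of genes kept for testing, 61.8% held the GC box and 5.2% the Egr site (33.1% and 2.7% of all 33469 promoters). The Grin1 window held 1 GC box and 1 Egr site, the Srr window 2 GC boxes and no Egr site, and the windows of Grin2d and Grin3a neither. Srr had the most CpG dinucleotides, 35, followed by Grin1 with 25, Grin3a with 17 and Grin2d with 11, against a median of 20 for genes kept. The windows of Grin1, Grin2d and Grin3a share neither motif, and whether the windows bear on the levels of these genes was not tested. A match is a description of letters in these windows and not of a bound site.

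Against saline, 7 of the 8 genes had a log2 fold change below 0 for Low Protein, 7 for MAM and 6 for Poly I:C. Over all genes kept, 55.0%, 71.9% and 48.9% were below 0 in the same comparisons. The median log2 fold change of the 8 genes was -0.25 for Low Protein, -0.16 for MAM and -0.27 for Poly I:C, beside -0.015, -0.071 and 0.0039 over all genes. At an unadjusted p under 0.05 with limma, 1 of the 8 genes differed in Low Protein (Grin1, lower), where 7.27% of all genes passed. For MAM it was 1 of 8 (Srr, lower), where 10.1% passed, and for Poly I:C 2 of 8 (Grin1, lower, and Grin3b, higher), where 9.54% passed. The study used another test and, for Low Protein and Poly I:C, also a minimum fold change, which these differences of Grin1 and Grin3b do not reach. Even so, the study reports Grin1 as decreased in Low Protein and Poly I:C, and Srr as decreased by MAM alone. After Benjamini-Hochberg adjustment over 12265 genes none of the 8 passed in any comparison. With limma all genes together gave 0 adjusted calls for Low Protein, 2 for MAM (0.0163%) and 0 for Poly I:C, against 892, 1238 and 1170 unadjusted. Of these unadjusted calls 36.3%, 20.5% and 41.5% were higher than saline. With samples scaled by the median of ratios instead the shares were 50.7%, 63.1% and 44.2%, so counts of lower genes in MAM depend on the scaling. The 3 comparisons share their saline pups, so a gene that is lower in all of them has not been seen lower 3 times independently.

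**Figure D2:**
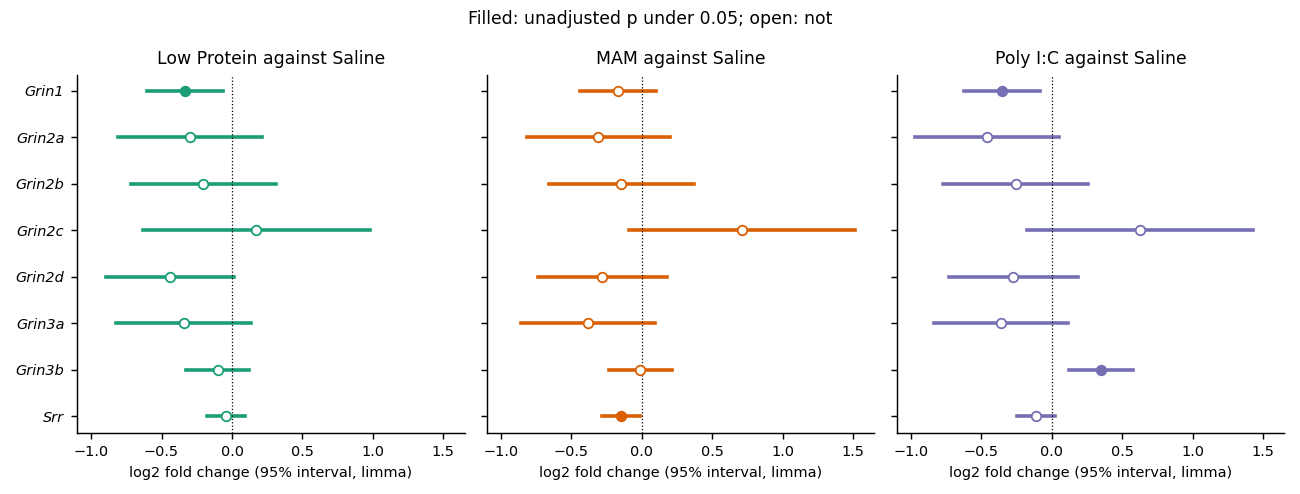
Log2 fold change against Saline of each gene (limma, 24 pups in a single fit) with its 95% interval, a panel for each treated group. Filled points mark an unadjusted p under 0.05, namely Grin1 in Low Protein and Poly I:C, Srr in MAM and Grin3b in Poly I:C, while the intervals of Grin2c are the widest.

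Grin1, the obligatory subunit, was lower in Low Protein than in saline pups. Its value was 2.18 to 2.73 in saline (median 2.36, mean 2.405 ± 0.201, SD, n = 6) and 1.70 to 2.11 in Low Protein (median 1.91, mean 1.91 ± 0.170, SD, n = 6). All 6 Low Protein pups were below all 6 saline pups. Without Saline 2.1 the log2 fold change was -0.30 and still passed. The log2 fold change was -0.34 (95% interval -0.60 to -0.067, limma p = 0.0166, adjusted p = 0.667; exact two-sided permutation p = 0.00216), which is 0.793 of the saline level. That exact p is the smallest that 924 splits of 6 against 6 pups can give, and 0.546% of all genes were likewise lower with no overlap. Both Low Protein litters lay below both saline litters, with means of 1.85 and 1.97 against 2.38 and 2.43. Without Low Protein litter 1, without either saline litter and with litter means as the samples, the unadjusted limma threshold was no longer passed, at differences of -0.29 to -0.35.

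In Poly I:C pups Grin1 was lower on average but much more variable. The values ran from 1.29 to 2.46 (median 2.03, mean 1.92 ± 0.451, SD, n = 6), and 4 of 6 pups were below every saline pup. The log2 fold change was -0.36 (95% interval -0.62 to -0.088, limma p = 0.0117, adjusted p = 0.389; exact permutation p = 0.0325). The lowest values belonged to pups Poly I:C 2.2 (1.29) and Poly I:C 2.3 (1.496), and the highest, 2.46, to Poly I:C 1.1. The difference depended on the litter, at -0.13 without litter 2, where the call was lost, and -0.58 without litter 1. The latter rests on the 3 pups of litter 2. It was the only 1 of 43 settings in which Grin1 passed adjusted in Poly I:C (limma adjusted p = 0.0377). In that setting 2288 of all 12265 genes passed unadjusted, against 1170 with all pups. In MAM the values were 1.74 to 2.62 (mean 2.15 ± 0.330, SD, n = 6), overlapping with saline. The log2 fold change there was -0.17 (95% interval -0.44 to 0.097, limma p = 0.199; exact permutation p = 0.126). Over the 4 groups together Grin1 passed the limma F test unadjusted, as 13.0% of all genes did, but not after adjustment (adjusted p = 0.367), which 0.171% of all genes passed.

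**Figure D3:**
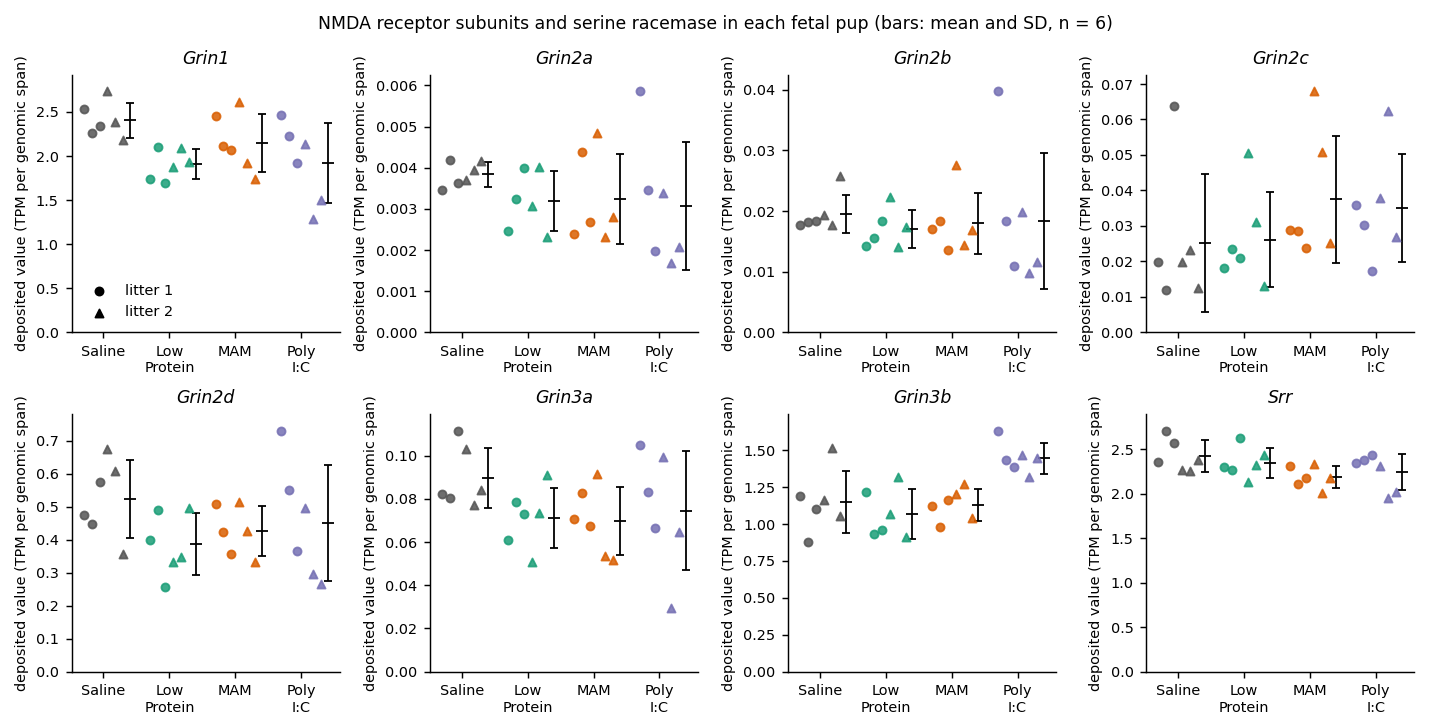
Deposited value (TPM per genomic span, linear axes from 0) of each of the 8 genes in every pup of the 4 groups, with circles for litter 1, triangles for litter 2 and bars for the mean and SD of 6 pups. All Low Protein pups lie below all saline pups for Grin1, from 1.70 to 2.11 against 2.18 to 2.73, and the Poly I:C pups of Grin3b lie above all Low Protein and MAM pups.

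Among the GluN2 genes, none passed the unadjusted threshold in any comparison. Grin2b, the main fetal GluN2 subunit, had a value of 0.0177 to 0.0257 in saline (median 0.0183), 0.0141 to 0.0224 in Low Protein (median 0.0165), 0.0135 to 0.0276 in MAM (median 0.0170) and 0.00986 to 0.0397 in Poly I:C (median 0.0149). The 4 groups overlapped, and the Poly I:C pups held both the highest and the lowest value. Its log2 fold change was -0.20 for Low Protein, -0.15 for MAM and -0.26 for Poly I:C, each with a standard error of 0.249. The 95% interval in Poly I:C, -0.77 to 0.26, leaves room for a sizeable change in either direction.

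Grin2d, the subunit of slowly decaying embryonic receptors, was 0.356 to 0.675 in saline (median 0.526) and 0.256 to 0.496 in Low Protein (median 0.372), with 3 of 6 Low Protein pups below every saline pup. Its log2 fold change in Low Protein was -0.44 (95% interval -0.90 to 0.015, limma p = 0.0572; exact permutation p = 0.0628). In MAM it was -0.28 and in Poly I:C -0.27, with a standard error of 0.220. Grin2a, the subunit of mature synapses, had values of 0.00345 to 0.00419 in saline. In Low Protein it ran from 0.00232 to 0.00402, in MAM from 0.00232 to 0.00485 and in Poly I:C from 0.00169 to 0.00585. In Poly I:C 5 of 6 pups were below and 1 pup was above the whole saline range, for a log2 fold change of -0.46 (95% interval -0.97 to 0.051; exact permutation p = 0.121). The SD of the saline log2 values of Grin2a, 0.114, was below its counting error of 0.178. That saline range is thus narrower than counting alone would give, and counts of pups outside it carry little weight. Grin2a and Grin2b together give the balance that shifts after birth in the cortex. The ratio of Grin2a to Grin2b was lower in Poly I:C than in saline by 0.20 on the log2 scale (exact permutation p = 0.0498, unadjusted), with 1 of 6 pups below every saline pup. The differences were -0.096 in Low Protein and -0.16 in MAM (exact permutation p = 0.619 and 0.234). This ratio was among several chosen after the values were seen, so a p this close to 0.05 carries little weight.

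Grin2c, best known from the cerebellum, stood at 7 to 83 estimated reads per pup. A search for the span factor that made its values most nearly whole reads gave 0.9481. That factor put 23 of 24 pups within 0.15 of a whole number, a closeness that the search itself sought. The same search for Grin2a gave 0.9783 and 20 of 24 pups. For Grin2c the factor gave 21, 7, 78, 12, 18 and 8 reads in the 6 saline pups. The log2 fold change of Grin2c was 0.17 for Low Protein, 0.71 for MAM and 0.63 for Poly I:C, with a standard error of 0.387 and 95% intervals that all include 0. The saline pup with 78 reads, Saline 1.3, holds a value of 0.0638 against 0.0121 to 0.0233 in the other saline pups, and the groups overlapped in each comparison.

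The glycine-binding subunits did not follow each other. Grin3a, which lowers calcium entry and is prominent in the developing brain, was 0.0772 to 0.112 in saline (median 0.0831), 0.0508 to 0.0911 in Low Protein (median 0.0731), 0.0516 to 0.0917 in MAM (median 0.0692) and 0.0293 to 0.105 in Poly I:C (median 0.0749). Below every saline pup were 4 of 6 Low Protein pups, 4 of 6 MAM pups and 3 of 6 Poly I:C pups. The log2 fold changes were -0.34, -0.38 and -0.36 with a standard error of 0.231. None passed with limma, with p = 0.152, 0.111 and 0.131, and the exact permutation tests gave p = 0.0519, 0.0455 and 0.253.

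Grin3b was higher in Poly I:C, the only called increase among the 8 genes. Its value was 1.32 to 1.63 in Poly I:C (median 1.44, mean 1.45 ± 0.105, SD, n = 6) and 0.876 to 1.52 in saline (median 1.13, mean 1.15 ± 0.212, SD, n = 6). The log2 fold change was 0.35 (95% interval 0.12 to 0.57, limma p = 0.00405, adjusted p = 0.342; exact permutation p = 0.0130), which is 1.27 times the saline level. The groups overlapped through pup Saline 2.2, whose value of 1.52 exceeded those of 5 of the 6 Poly I:C pups. Low Protein pups had 0.915 to 1.32 and MAM pups 0.977 to 1.27, with log2 fold changes of -0.10 (exact permutation p = 0.478) and -0.012 (exact permutation p = 0.922). Poly I:C was also compared with the other treated groups directly, a comparison chosen after the values were seen. Every Poly I:C pup was above every Low Protein pup (difference 0.45 on the log2 scale, limma p = 0.00042, adjusted p = 0.322; exact permutation p = 0.00216), where 0.122% of all genes were higher with no overlap, 4.62% passed unadjusted and 0.0163% adjusted. The margin was small, as the lowest Poly I:C value was 1.3181 and the highest Low Protein value 1.3178. The same held against MAM (difference 0.36, limma p = 0.00312, adjusted p = 0.0884; exact permutation p = 0.00216), a comparison in which 2.90% of all genes were higher with no overlap, 18.7% passed unadjusted and 0.938% adjusted.

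Both Poly I:C litters contributed to the Grin3b difference, with means of 1.48 and 1.41, against 1.06 and 1.25 in the saline litters. Without Saline litter 1 the difference was 0.23, the single setting of 43 in which the unadjusted limma threshold was not passed. The end of Grin3b overlaps that of Tmem259 by 72 bases in GRCr8, and whether strand was used in counting is not given in the sources used here. Tmem259 itself had a log2 fold change of -0.041 in Poly I:C (standard error 0.0707). Across the 24 pups the correlation of Grin3b with the 6 other receptor genes ran from -0.058 to 0.358, the highest with Grin2c. With Grin1 it was 0.0126, and 0.276 once group means were taken out.

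The ratio of Grin3b to Grin1 puts both called genes of Poly I:C into a single number that does not depend on how samples were scaled. It was chosen, with 6 other ratios between the 8 genes, after the values were seen. Since it sets the gene called higher over a gene called lower, it restates those calls and is given as a description with no test. On the log2 scale the ratio was -1.37 to -0.65 for saline, -1.18 to -0.52 for Low Protein, -1.12 to -0.59 for MAM and -0.64 to 0.036 in Poly I:C. All 6 Poly I:C pups were above all 6 saline pups, although the lowest Poly I:C pup (-0.6378) and the highest saline pup (-0.6515) nearly touched. The mean difference from saline was 0.70, or 1.63-fold, and the differences from Low Protein and MAM were 0.47 and 0.54. Among the other ratios to Grin1, that of Srr differed from saline by 0.29 in Low Protein, 0.24 in Poly I:C and 0.023 in MAM. As Grin1 was called lower in Low Protein and Poly I:C, these differences of the Srr ratio are given with no test. The ratios of Grin2b, Grin2d and Grin3a to Grin1 differed from saline by no more than 0.21 in any group, with exact permutation p of 0.0974 or more. They too are set over Grin1 and were chosen after the values were seen, so these p-values do not show that the proportions were unchanged.

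**Figure D4:**
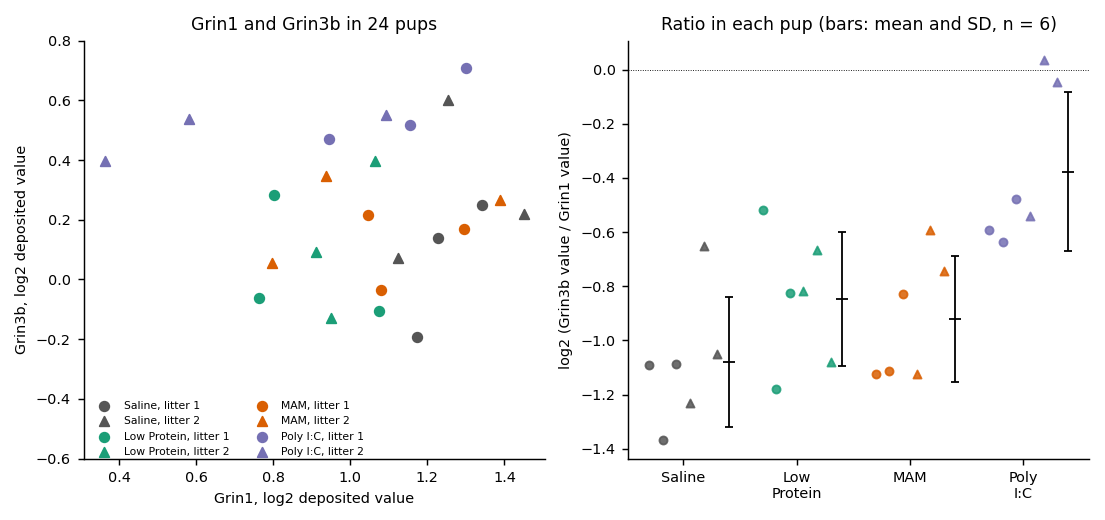
Left, log2 deposited values of Grin1 and Grin3b in 24 pups, coloured by group, with circles for litter 1 and triangles for litter 2. Right, the log2 ratio of the Grin3b value to the Grin1 value in each pup with the mean and SD of 6 pups per group, where the Poly I:C pups (-0.64 to 0.036) lie above the saline pups (-1.37 to -0.65).

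Srr, the source of D-serine, had the smallest SD of log2 values of the 8 genes in saline, Low Protein and MAM, while in Poly I:C that of Grin3b was smaller (0.103 against 0.134). Its value was 2.25 to 2.71 in saline (median 2.37, mean 2.42 ± 0.181, SD, n = 6), 2.13 to 2.62 in Low Protein (median 2.31, mean 2.35 ± 0.167, SD, n = 6), 2.00 to 2.33 in MAM (median 2.17, mean 2.18 ± 0.125, SD, n = 6) and 1.95 to 2.43 in Poly I:C (median 2.33, mean 2.24 ± 0.201, SD, n = 6). In MAM 4 of 6 pups were below every saline pup. The log2 fold change was -0.15 in MAM (95% interval -0.28 to -0.012, limma p = 0.0343, adjusted p = 0.491; exact permutation p = 0.0216), or 0.903 of the saline level. In Low Protein it was -0.044 (95% interval -0.18 to 0.092) and in Poly I:C -0.11 (95% interval -0.25 to 0.022). In MAM the median of all genes was -0.071 on the deposited scale, and with samples scaled by the median of ratios the Srr difference was -0.083 and no longer passed. Srr overlaps Tsr1 by 2303 bases and Smg6 by 467 bases at its ends in GRCr8, and Smg6 had a log2 fold change of -0.12 in MAM (standard error 0.0953).

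For 6 of the 8 genes the gap between litters was widest in Poly I:C, the exceptions being Grin2c (0.71 in MAM, 0.59 in Poly I:C) and Grin3b (0.23 in saline). In Poly I:C litter 2 was lower than litter 1 on the log2 scale by 0.46 for Grin1, 0.58 for Grin2a, 0.61 for Grin2b, 0.64 for Grin2d and 0.54 for Grin3a, but by only 0.070 for Grin3b. For none of these genes were the litters apart. Only Srr in Poly I:C had litters that did not overlap, with means of 2.38 and 2.10. An exact permutation test of the litter labels within groups over 10000 splits gave p = 0.0662 for Srr, 0.219 for Grin1 and 0.398 to 0.654 for the other genes. Poly I:C 1.1 was above every saline pup for 4 of the 8 genes, whereas Poly I:C 2.2, Poly I:C 2.3 and MAM 2.3 were each below every saline pup for 6. Over all genes kept, Poly I:C 1.1 was above every saline pup for 25.6%, and the other 3 pups were below every saline pup for 24.9%, 27.9% and 28.6%.

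Across the 24 pups most of the receptor genes varied together. The correlation of log2 values was 0.807 between Grin1 and Grin2d, 0.787 between Grin1 and Grin3a and 0.820 between Grin2a and Grin2b, while Grin1 and Srr reached 0.443. These pups share litters, libraries scaled to a common total and a dissection, so the values are given as a description. Among the genes with the most similar pattern to Grin1 were Dnm1 (r = 0.963), Pak6 (0.949), MAST1 (0.943) and Pitpnm1 (0.941), and after group means were taken out r was 0.968 for Dnm1. Dnm1 encodes dynamin 1, which cuts synaptic vesicles from the membrane. Grin2b was most similar to Cacna1e (0.894), a voltage-gated calcium channel, and then to Tnr, Xkr4, Kcnh7 and Kcna3 (0.854 to 0.878). Srr was most similar to Socs5 (0.862), Lancl2, Stx12, Hdgfrp3 and Gng2 (0.835 to 0.852).

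Markers of maturing neurons moved with most of the 8 genes. The mean log2 value of 14 such markers, relative to saline, had a correlation over 24 pups of 0.765 with Grin1, 0.690 with Grin2a, 0.654 with Grin2b, 0.699 with Grin2d, 0.771 with Grin3a and 0.750 with Srr, but of -0.0431 with Grin3b and -0.107 with Grin2c. This score was lower than in saline by 0.14 for Low Protein, 0.16 for MAM and 0.12 for Poly I:C. The summed value of the 14 markers ranged from 337 to 374 for saline, 307 to 363 for Low Protein, 324 to 373 for MAM and 294 to 356 for Poly I:C, with no marker at the offset. Of the 14, 1 was lower at the unadjusted threshold in Low Protein (Syp), 4 in MAM (Nefm, Syt1, Nefl and Syp; 1 of 14 when scaled by the median of ratios) and 2 in Poly I:C (Syp and Mapt), where 4.63%, 8.02% and 5.58% of all genes were lower. Scaled by the median of ratios, 363 of all 12265 genes were lower in MAM. Without Saline 2.1 the counts were 0, 3 and 3, where 3.07%, 12.1% and 4.35% of all genes were lower. Relative to the score, Grin1 was lower by 0.20 in Low Protein and by 0.23 in Poly I:C, while in MAM the difference was -0.0077 (exact permutation p = 0.924). As Grin1 was called lower in Low Protein and Poly I:C in these same pups, those differences are given with no test. Grin3b in Poly I:C was higher by 0.47 relative to the score. Since this sets a gene called higher over a score that was lower, it restates the call and is given with no test. Srr in MAM differed from saline by 0.016 relative to the score (exact permutation p = 0.727). All p-values relative to the score are unadjusted. Fewer neurons in the tissue and less RNA per neuron cannot be told apart in these bulk samples.

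**Figure D5:**
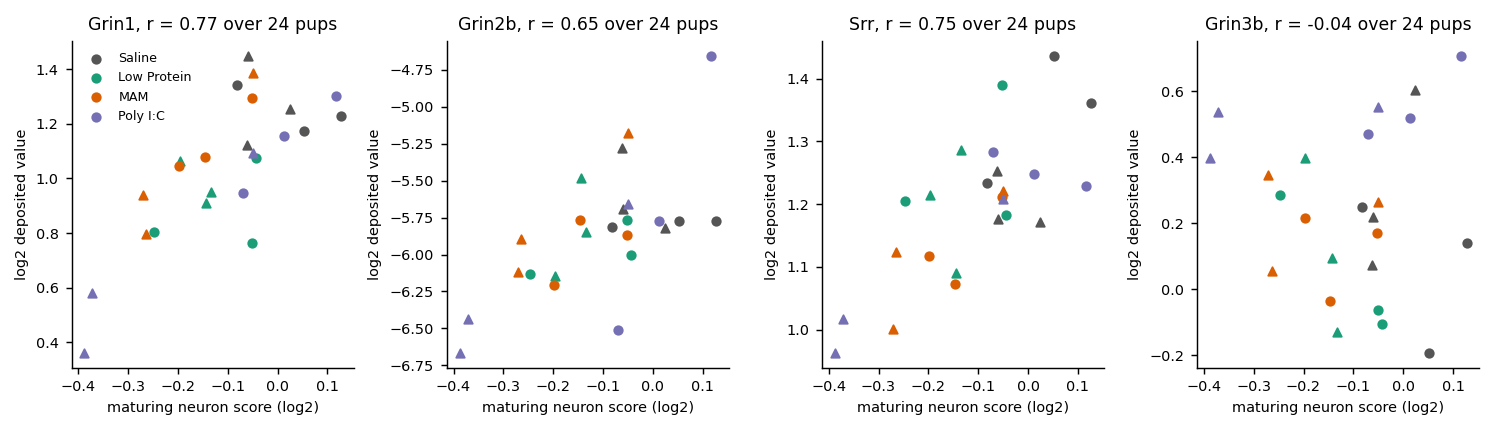
Log2 deposited value of Grin1, Grin2b, Srr and Grin3b against the mean log2 value of 14 markers of maturing neurons relative to saline, with a point for each of 24 pups coloured by group, circles for litter 1 and triangles for litter 2. Grin1 (r = 0.765), Grin2b (0.654) and Srr (0.750) go up along the score and Grin3b (-0.0431) does not.

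GABAergic neuron markers were also lower beside Grin1. In Low Protein 7 of the 9 measured markers were lower at the unadjusted threshold (among them Lhx6, Gad2, Dlx1, Dlx5 and Gad1), where 4.63% of all genes were lower. For MAM it was 3 of 9 and for Poly I:C 1 of 9, where 8.02% and 5.58% were lower. Their summed value ranged from 65.9 to 126 for saline, 56.5 to 77.6 for Low Protein, 61.4 to 77.8 for MAM and 61.9 to 88.5 for Poly I:C, with no marker at the offset in all pups. The correlation of their mean log2 value with Grin1 was 0.745 and with Grin2d 0.709, and with Grin3b 0.120. These counts rested on pup Saline 2.1: without it they were 2, 0 and 0 of 9, where 3.07%, 12.1% and 4.35% of all genes were lower, and the correlation with Grin1 was 0.738. Scaled by the median of ratios with all pups, the count stayed at 7 in Low Protein and was 0 in MAM. With that scaling 483 and 363 of all 12265 genes were lower. The part of these cells in the Grin1 difference was not tested.

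Oligodendrocyte lineage markers followed Grin1 more closely still. The mean log2 value of the 6 markers had a correlation of 0.863 with Grin1 and 0.837 with Grin2d over 24 pups, 0.858 and 0.822 without Saline 2.1, and 0.173 with Grin3b. All 6 had a log2 fold change below 0 in each comparison, with medians of -0.27 for Low Protein, -0.26 for MAM and -0.21 for Poly I:C. Over all genes 55.0%, 71.9% and 48.9% were below 0. Olig1 and Sox10, transcription factors of this lineage, were lower at the unadjusted threshold in Low Protein, and Sox10 alone in both other groups. Of all genes 4.63%, 8.02% and 5.58% were lower at that threshold. Without Saline 2.1 the counts were 1, 0 and 1 of 6, with medians of -0.19, -0.14 and -0.15, where 3.07%, 12.1% and 4.35% of all genes were lower. In Poly I:C 5 of the 6 were then below 0. The summed value of the 6 ranged from 15.7 to 29.5 for saline, 10.6 to 19.2 for Low Protein, 14.3 to 20.8 for MAM and 12.6 to 22.7 for Poly I:C, with no marker at the offset in all pups. Their part in the Grin1 difference was not tested. Astrocyte markers had a correlation of 0.662 with Grin1 and striatal markers one of 0.523. Without Saline 2.1 these were 0.657 and 0.431. Of the listed markers of progenitors, striatum, thalamus, astrocytes and microglia, no more than 2 of a list passed in either direction on the deposited scale, unadjusted. With samples scaled by the median of ratios 3 of 9 progenitor markers were higher in Poly I:C, where 612 of all 12265 genes were. Over 24 pups Grin3b had a correlation of 0.434 with meningeal markers, 0.393 with progenitor, 0.389 with blood and 0.345 with endothelial markers. With microglial markers it was 0.266 and with choroid plexus markers 0.134. After group means were taken out these were 0.6, 0.306, 0.399, 0.453, 0.529 and 0.197. Grin2c had a correlation of 0.493 with progenitor and 0.489 with endothelial markers. The part of these tissues in the Grin3b difference was not tested.

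The enzymes and transporters that supply D-serine and glycine were measured for 17 of 18 listed genes. In Low Protein 4 were higher and none lower, where 2.64% of all genes were higher, and the median log2 fold change was 0.11. Psat1 and Psph, which make serine from a glycolytic intermediate, were higher by 0.48 (limma adjusted p = 0.288) and 0.49 (limma adjusted p = 0.572). Shmt2 and Shmt1, which interconvert serine and glycine, were higher by 0.28 and 0.29. In MAM only Shmt1 passed, higher by 0.40, where 2.07% of all genes were higher, and in Poly I:C Shmt1 and Psat1 did, by 0.24 and 0.23, where 3.96% were higher. With samples scaled by the upper quartile no listed gene passed in Poly I:C, with a median of 0.036 against 0.056 on the deposited scale. No listed gene was lower in any comparison at that threshold, except 1 in Low Protein without Saline 2.1, while Srr itself, downstream of these enzymes, was not higher in any.

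Scaffold, trafficking and signalling partners of the receptor were measured for 43 of 44 listed genes. At the unadjusted threshold none was higher in any comparison on the deposited scale, and 1 was in Low Protein with samples scaled by the median of ratios. For Low Protein 4 were lower (Begain, Rasgrf2, Dlgap1 and Dlgap3). For MAM it was 7, among them Dlg3, Neto1, Dlgap1, Cask and Actn2, and for Poly I:C 9, led by Rasgrf2, Camk2a, Dlgap1, Dlgap3, Rasgrf1 and Actn2. Their medians were -0.12, -0.12 and -0.18. Scaled by the median of ratios, 5, 2 and 14 of them were lower, where 483, 363 and 773 of all 12265 genes were. The MAM count was the one of the list that shrank, and over all genes it fell from 984 to 363. Without Saline 2.1 the counts were 1, 7 and 5, where 3.07%, 12.1% and 4.35% of all genes were lower. Over all genes 4.63%, 8.02% and 5.58% were lower on the deposited scale. In Poly I:C Camk2a, the kinase that GluN2B binds, was lower by 0.58 (limma adjusted p = 0.351) and Rasgrf2, an exchange factor coupled to NMDA receptors, by 0.51 (limma adjusted p = 0.351). The mean log2 value of the list had a correlation of 0.887 with Grin1 and 0.0447 with Grin3b over 24 pups. Of 11 AMPA, kainate and delta receptor subunits, 0 passed for Low Protein or MAM and 2 were lower for Poly I:C with limma, unadjusted (Grid1 by 0.34 and Gria1 by 0.29). Without Saline 2.1 it was 0, 2 and 1 of 11, all lower, beside the shares of all genes given above for that setting. The medians of these 11 genes were -0.19, -0.18 and -0.16, close to that of the 8 genes in MAM.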

How the data were processed

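Polyadenylated RNA was sequenced from 24 fetuses. Per the methods, the authors trimmed reads, aligned them to rn6 with STAR 2.4.1d, counted them against RefSeq transcripts in Partek and deposited TPM values with an offset of 0.0001. These sum to 70350.1 in every pup and behave as reads per genomic span. Reads were estimated from the step of low values times the GRCr8 span (97.5% of genes matched); 46.6% to 54.2% of low values lay within 0.05 of a whole read, against 10% by chance. Log2 values were compared with limma 3.58.1 (lmFit and eBayes, R 4.3.3) in a fit of 24 pups, tested on simulated data, and single genes with exact permutation tests. Named were the 8 genes, the 5 genes with the highest r to Grin1, Grin2b and Srr, and list genes under the unadjusted threshold, at most 6 by smallest p; a few genes that this rule names are not reported here. Members and lists were chosen with earlier results of these data known. Alternatives covered the filter, scaling, pseudocount, variance trend, groups in the fit, litter, a replicate block and leaving out pups or litters.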

Additional observations from a re-analysis of the deposited data

Results flagged for a closer look

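Of 32 groups of 6 pups, 4 for each of the 8 genes, 1 held a pup far from the others. Grin2b in pup Saline 2.3 had a value of 0.0257, and its gap to the next saline pup was 0.757 of the group's range, above Dixon's critical value for 6 samples. Chance gives about 1 in 20 groups such a pup.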

How the results depend on the processing

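Each fold change was recomputed under up to 43 settings. Unadjusted p under 0.05 was kept by Grin1 in 39 of 43 settings for Low Protein (-0.38 to -0.23) and 40 of 43 for Poly I:C, by Grin3b for Poly I:C in 42 of 43 (0.19 to 0.46) and by Srr for MAM in 32 of 43 (-0.22 to -0.076). The Srr call was lost under both other scalings (-0.083 and -0.11), with litter means, without pup MAM 1.2, 1.3 or 2.2 or Saline 1.2 or 1.3, and without either MAM litter or Saline litter 1. Grin1 lost its Poly I:C call with litter means and without Poly I:C litter 2 or Saline litter 2. Differences not called on the deposited scale passed unadjusted in 33 combinations of gene, comparison and setting, 11 of them Grin2d for Low Protein.

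Direction turned for Grin3b under MAM with scaling by median of ratios (0.053) and by upper quartile (0.030), and with pups or litters omitted (-0.128 to 0.104). Omitting pups or litters also turned Grin2c (-0.0632 to 0.493), Grin3b (-0.218 to 0.0143) and Srr (-0.116 to 0.0278) for Low Protein, and Grin2b (-0.562 to 0.0475) and Grin2d (-0.594 to 0.0464) for Poly I:C. The cause was not tested.

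Genes under the unadjusted threshold numbered 892 for Low Protein, 1238 for MAM, 1170 for Poly I:C and 1589 in the F test. Over the 5086 genes of the study's filter they were 419, 572, 506 and 835, as fewer genes were tested. Litter means gave 670 for MAM, 766 for Poly I:C and 690 in the F test. Omitting pups or litters gave 514 to 1145 for Low Protein, 422 to 1761 for MAM, 560 to 2288 for Poly I:C and 871 to 2012 in the F test. Counts moved by over 1.5 times for Low Protein without Saline litter 2 (514), for MAM without Saline litter 1 (422), MAM litter 1 (711) or 2 (614), or pup MAM 1.3 (820), MAM 2.2 (795) or Saline 1.3 (680), for Poly I:C without its litter 1 (2288) or 2 (560) or Saline litter 2 (638), and in the F test without MAM litter 1 (871) or 2 (981). The share of higher genes among those called was 36.3% for Low Protein, 20.5% for MAM and 41.5% for Poly I:C, against 50.7%, 63.1% and 44.2% scaled by the median of ratios and 32.8%, 45.8% and 30.3% by the upper quartile.

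Pups with the same number in different groups had a median r of deviations of 0.0316 over 36 pairs, above 0.1 in 14. For pups with other numbers the median was -0.0105 over 180 pairs, above 0.1 in 34. Whether the numbers pair the pups was not tested. A replicate block gave 1129, 1563, 1372 and 2006 genes. The list counts by scaling and without Saline 2.1, given above, were added after the data were seen. Reads limit Grin2a and Grin2c most.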
